A study of Homo sapiens with 2 samples.

Results

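CpG-rich promoters that carried dense methylation in both SKNO-1 and SKNO1-siAE cells were examined here. SKNO-1 cells derive from acute myeloid leukemia (AML) and hold the AML1-ETO (RUNX1-RUNX1T1) fusion gene, and SKNO1-siAE is its derivative made with a lentiviral vector, pRRLcPPT.hPGK, whose siAGF1 oligonucleotides target the fusion mRNA. Each line was represented by 1 MCC-Seq library, a capture assay that reads cytosine methylation after bisulfite conversion. With 1 library per line there is no replicate error and no test, and a difference between the libraries cannot be told apart from a difference between 2 preparations. Whether SKNO1-siAE was a pool or a clone is not given in the sources used here, expression was not measured in these files, and cells treated with a demethylating agent were not analysed here.

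The genome (hg19) was divided into tiles of 500 bp, and a tile was CpG-rich when its observed-to-expected CpG ratio was at least 0.65 and its GC content at least 55%. A promoter tile overlapped the window of 500 bp on either side of the MANE Select start, the representative transcript start of a coding gene. A tile was measured when at least 10 of its CpG cytosines (sites, each strand counted on its own) were covered by at least 5 reads per library, and its level was the mean over those sites of methylated reads divided by all reads. Of 14535 measured autosomal CpG-rich promoter tiles, 1966 had a level of at least 0.8 in both libraries and are called the methylated tiles. They were chosen by these levels, so the levels are described and not tested. The rate over all measured tiles was 13.5%, while 9708 tiles (66.8%) were at most 0.2 in both libraries and 2861 (19.7%) were neither. The methylated tiles lay at the promoters of 1517 of the 10657 genes with a measured tile (14.2%).

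CpG islands at promoters are free of methylation in most normal tissues, whatever the activity of the gene. Dense methylation of an island is maintained through cell division by DNMT1, is bound by methyl-CpG readers and goes with long-term silencing. Known exceptions in somatic tissue are the promoters of many germline genes, which are methylated in the early embryo, and the methylated allele of imprinted genes. Leukemia cells also gain island methylation, often at genes that Polycomb proteins mark in stem cells, such as regulators of embryonic patterning.

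The letters below show how dense in CpG these promoters are. Each run is the 150 bases just upstream of a MANE Select start, read from hg19 5′ to 3′ on the strand of the gene, with every CpG in capitals. The first 4 genes work in the germ line and had methylated tiles, and SYCE2 is a germline gene whose promoter was unmethylated in both libraries.
DAZL, chr3:16646931-16647080, minus strand: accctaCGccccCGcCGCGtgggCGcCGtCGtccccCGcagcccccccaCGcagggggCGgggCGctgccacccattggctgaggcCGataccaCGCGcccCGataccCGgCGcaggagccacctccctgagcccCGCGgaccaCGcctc
TDRD9, chr14:104394643-104394792, plus strand: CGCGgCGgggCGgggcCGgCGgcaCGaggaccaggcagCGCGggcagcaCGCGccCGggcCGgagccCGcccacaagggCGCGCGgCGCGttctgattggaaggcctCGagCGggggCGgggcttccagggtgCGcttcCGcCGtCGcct
MOV10L1, chr22:50528285-50528434, plus strand: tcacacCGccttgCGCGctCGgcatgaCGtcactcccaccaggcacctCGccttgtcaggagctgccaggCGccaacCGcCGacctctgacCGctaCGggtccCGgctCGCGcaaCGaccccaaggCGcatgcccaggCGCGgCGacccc
C14orf39, chr14:60952782-60952931, minus strand: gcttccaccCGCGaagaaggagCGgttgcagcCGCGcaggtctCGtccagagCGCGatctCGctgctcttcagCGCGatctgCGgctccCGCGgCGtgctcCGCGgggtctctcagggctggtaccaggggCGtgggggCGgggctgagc
SYCE2, chr19:13030108-13030257, minus strand: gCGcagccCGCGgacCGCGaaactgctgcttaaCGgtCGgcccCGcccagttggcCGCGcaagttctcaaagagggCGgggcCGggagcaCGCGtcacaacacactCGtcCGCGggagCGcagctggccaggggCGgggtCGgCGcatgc

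DAZL, a germ cell RNA-binding protein, had 20 CpGs in this window, and over its 32 sites the level averaged 0.964 in SKNO-1 and 0.942 in SKNO1-siAE. TDRD9, a helicase of the piRNA pathway that silences transposons, had 26 CpGs, with levels of 0.981 and 0.986 over 29 sites. MOV10L1, another piRNA helicase, was at 0.976 and 0.977 over 16 sites. These windows were near full methylation in both lines, and 24 of the 32 DAZL sites had no unmethylated read in SKNO-1. C14orf39, a protein of the synaptonemal complex that holds paired chromosomes together in meiosis, was at 0.985 and 0.919 over 24 sites. SYCE2, which also belongs to the synaptonemal complex, had 21 CpGs, about as many as DAZL, and levels of 0.0117 and 0 over 38 sites.

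The libraries were alike in depth, with 4713346 sites and a mean of 17.7 reads per site in SKNO-1, and 4694016 sites and 17.5 reads in SKNO1-siAE. On the mitochondrial genome, which is taken as free of CpG methylation and so gauges incomplete conversion, 0.351% and 0.378% of CpG reads were read as methylated. The starts of SPI1 and PTPRC, genes of blood cells, were at 0 in SKNO-1 and at 0 and 0.00855 in SKNO1-siAE, over 7 sites each. CD34, of blood stem cells, was at 0.986 and 0.974, and RUNX1 at 0.00744 and 0.311. Among markers of other tissues, KRT8 and MYOD1, of epithelium and muscle, were at 0.847 and 0.944 in SKNO-1 and at 0.928 and 0.931 in SKNO1-siAE, whereas KRT5, of basal epithelium, was at 0.448 and 0.451 and CDH5, of endothelium, at 0.205 and 0.450. A marker here gives methylation at a start and not expression.

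Most methylated tiles were well above the threshold. The median tile stood at 0.931 (SKNO-1) and 0.952 (SKNO1-siAE), and 1146 of the 1966 tiles (58.3%) were at 0.9 or more in both. Of the sites in these tiles, 73.3% had no unmethylated read in SKNO-1 and 78.3% had none in SKNO1-siAE. Pooled over all reads, the level was 0.923 (95% Wilson interval 0.922 to 0.923) and 0.943 (0.942 to 0.943), from 1191892 and 1191100 reads. These intervals cover counting error only, since reads without molecular identifiers are not independent molecules. A single tile had a median of 440.5 and 453.5 reads, and the interval on its pooled level was 0.0446 and 0.0377 wide in the median. That interval lay wholly below 0.8 for 14 tiles in SKNO-1 and 4 in SKNO1-siAE, where sites with more reads were the less methylated ones.

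Within the corner that the rule allows, SKNO-1 was the lower library more often. Its level was below that of SKNO1-siAE in 1249 tiles (63.5%) and above it in 700, with a median difference of -0.0164, and 1246 tiles (63.4%) differed by less than 0.05. The median size of the difference was 0.0350. The largest differences toward a lower level in SKNO-1 were in tiles of ESR1, the estrogen receptor (0.8 against 1, 10 sites), PAPPA, a protease that frees insulin-like growth factors (0.8 against 1, 10 sites), CLDN5, a tight junction protein of endothelium (0.8 against 0.991), and COCH, an inner ear matrix protein (0.803 against 0.992, 32 sites). In the other direction stood EPHB1, an ephrin receptor (0.992 against 0.8), CIART, a circadian repressor (0.995 against 0.806), B3GNT7, a glycosyltransferase (1 against 0.820), and HES4, a Notch target (0.987 against 0.817). In the library at 0.8, the tiles of ESR1, PAPPA, CLDN5 and EPHB1 rested on 50, 60, 65 and 60 reads.

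The threshold also set which tiles counted. Just inside it were tiles of PATJ (0.8 and 0.939), EPHB1 (0.992 and 0.8) and the neuronal factor POU4F2 (0.818 and 0.8). Just outside were CADM1, an adhesion protein (0.7999 and 0.941, 62 sites), and MTNR1A, a melatonin receptor (0.7997 and 0.945). The tiles at 0.8 or more in SKNO-1 numbered 2211 (15.2% of measured tiles), of which 88.9% were methylated in both, and those of SKNO1-siAE numbered 3293 (22.7%), of which 59.7% were.

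Sites that reached 5 reads in a single library were not used to choose the tiles. In the methylated tiles, 26758 such sites of SKNO-1 had a pooled level of 0.892 (95% Wilson interval 0.891 to 0.893), and 28352 such sites of SKNO1-siAE had 0.928 (0.927 to 0.929). Of the tiles with at least 5 such sites, 1135 of 1370 in SKNO-1 (82.8%) and 1251 of 1376 in SKNO1-siAE (90.9%) were at 0.8 or more on these sites alone. In the tiles unmethylated in both libraries, such sites had pooled levels of 0.0109 and 0.0144. The methylation of the chosen tiles therefore extended to cytosines that the choice did not see. The level was lower in SKNO-1 than in SKNO1-siAE, but the libraries are compared here on different cytosines. These cytosines share tiles and molecules with the sites that were used, so they are not an independent sample.

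Levels were next described by strand, over the same sites that set the level of the tile. Of 1329 methylated tiles with at least 5 shared sites on each strand, 1107 (83.3%) were at 0.8 or more on either strand in both libraries. Of 18952 CpGs with shared sites on both strands, 69.9% were at 0.8 or more in all 4 values. At the other end, 8 of these CpGs, in 7 tiles, were at most 0.2 in all 4 values. The choice of tiles favors high values in all of these counts, since the same sites set the level of the tile. The counts by strand therefore add no separate support.

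The tile that holds the start itself could be judged for 8333 genes, of which 917 (11%) had a methylated start tile, 6024 an unmethylated one and 1392 neither. Of the 1517 genes with a methylated tile, the start tile was methylated in those 917, not measured in 405, between the thresholds in 172 and unmethylated in 23. The share of tiles that were methylated was 10.8% for tiles centered at the start. Upstream it was 9.81% at 250 bp, 10.3% at 500 bp and 15.2% at 750 bp, and downstream it was 13.1%, 19.3% and 22.4% at these distances. At each of the 3 distances the downstream share was the higher one.

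The level was followed from 3000 bp upstream to 3000 bp downstream of the start, where bins inside the start tile reflect the choice of tiles. In bins of 100 bp, the median site level over genes with a methylated start tile was 0.941 in SKNO-1 and 0.967 in SKNO1-siAE at 50 bp upstream (680 promoters). At 1050 bp upstream it was 0.796 and 0.903 (259 promoters), and at 1050 bp downstream 0.885 and 0.940 (299 promoters). Over genes with an unmethylated start tile, the median was 0 in both libraries at 50 bp upstream (4828 promoters), and at 2050 bp downstream it was 0.9 and 0.915 (461 promoters). At that distance, genes with a methylated start tile were at 0.849 and 0.929 (139 promoters). At 2150 bp upstream, the medians were 0.542 and 0.778 for methylated starts (108 promoters) and 0.888 and 0.8996 for unmethylated starts (389 promoters). In the adjoining bin, at 2050 bp upstream, they were 0.827 and 0.867 (87 promoters) against 0.8 and 0.860 (355 promoters). At 2950 bp downstream they were 0.749 and 0.909 against 0.976 and 0.976. From 2150 to 2950 bp on either side, unmethylated starts had the higher median in SKNO-1 in every bin. In SKNO1-siAE, unmethylated starts were higher in every such bin upstream. Downstream in SKNO1-siAE, they were lower at 2150 bp (0.931 against 0.939) and at 2350 bp (0.954 against 0.958) and higher in the other bins.

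CpG-rich DNA often ran on over neighboring tiles. Of the methylated tiles, 20.1% lay in a run of at least 4 CpG-rich tiles, against 9.98% of unmethylated tiles. Of 873 runs with a methylated tile and at least 2 measured tiles, 432 (49.5%) had every measured tile at 0.8 or more in both libraries, and 45 of the 1505 runs with a methylated tile also held an unmethylated one. The longest of the fully methylated runs was at NKX6-2, a homeobox factor of the nervous system, over 10 tiles (chr10:134597501-134602500), with 9 tiles measured and a mean level of 0.971 and 0.984. CYP1B1, a cytochrome P450 that oxidizes estrogens and aromatic hydrocarbons, had 6 measured tiles over chr2:38301001-38304500 at 0.951 and 0.946. TRIL, SOX1 and NR2E1, the latter 2 factors of neural stem cells, also had 6 measured tiles each, with mean levels of 0.921, 0.928 and 0.928 in SKNO-1.

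Germline genes had the highest share of methylated start tiles among the 14 gene lists examined. Of 61 germline genes with a measured tile, 47 (77.0%) had a methylated tile, and 37 of the 51 measured start tiles (72.5%) were methylated, against 14.2% and 11% over all genes. The median start tile of the list was at 0.929 and 0.952, whereas over all genes it was at 0.00526 and 0.00508. With an observed-to-expected ratio of at least 0.75, 29 of 45 measured germline genes (64.4%) had a methylated tile. Of the 47 genes, 35 were at 0.9 or more in both libraries, and SKNO-1 was the lower in 28. Among all methylated tiles, 58.3% were at 0.9 or more in both, and 63.5% were lower in SKNO-1. Methylation of many of these promoters in somatic cells is textbook knowledge, so the list is not independent evidence of a change in leukemia.

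The methylated germline genes act at several steps of gamete formation. For meiotic chromosome structure, SYCP3, an axis protein of the synaptonemal complex, was at 0.958 and 0.979 over 91 sites, C14orf39 at 0.975 and 0.904 over 102 sites, and HORMAD2 at 0.991 and 0.970. SPO11, which makes the breaks that start meiotic recombination, was at 0.895 and 0.952, and MSH4, which acts in crossover formation, at 0.978 and 0.960. For meiotic cohesin, REC8 was at 0.962 and 0.973 and RAD21L1 at 0.972 and 0.906. For the piRNA pathway, TDRD9 was at 0.957 and 0.984 over 98 sites, MOV10L1 at 0.923 and 0.972 over 93 sites, TDRD12 at 0.987 and 0.992, and PIWIL2 at 0.917 and 0.939. FKBP6, a co-chaperone in the same pathway, was at 0.976 and 0.992, but its tile has a near-identical copy elsewhere in hg19, so its reads are less certain. Among RNA-binding proteins of germ cells, DAZL was at 0.9502 and 0.980, DDX4 at 0.947 and 0.987, and BOLL at 0.989 and 0.980. The lowest of the list in SKNO-1 was KASH5, which tethers meiotic chromosomes to the nuclear envelope, at 0.817 and 0.953. In SKNO1-siAE the lowest was the tile shared by SMC1B, a meiotic cohesin subunit, and RIBC2, at 0.836 and 0.853.

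Not every germline promoter was methylated. The start tiles of ANKRD31, DMC1, HSF2BP, PLD6, SYCE2, SYCP2L and ZCWPW1 were at most 0.2 in both libraries. They were 7 of 51 measured start tiles (13.7%), against 72.3% of all genes. SYCP2L was at 0 and 0.000755, and ZCWPW1, a reader of histone marks at recombination sites, at 0.00594 and 0. DMC1, the meiotic recombinase, was at 0.165 and 0, and PLD6, a nuclease of piRNA formation, at 0.112 and 0.00278. HSF2BP had an unmethylated start tile at 0.0139 and 0.00585 and a methylated tile nearby at 0.976 and 0.960, and it shares these tiles with RRP1B, a widely expressed nucleolar protein. Within the tudor-domain family, the genes TDRD1, TDRD5, TDRD6, TDRD9, TDRD10 and TDRD12 had a methylated tile, while TDRD3, which is broadly expressed, had an unmethylated start.

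Developmental transcription factors formed a large group. Of 178 with a measured tile, 113 (63.5%) had a methylated tile, against 14.2% of all genes. Of their 123 measured start tiles 64 (52.0%) were methylated, against 11% of all genes. Unmethylated start tiles numbered 19 (15.4%), against 72.3% of all genes. TLX3, a homeobox factor of sensory neurons that is activated by translocation in T-cell leukemia, was at 0.972 and 0.951 over 179 sites. NKX6-2 was at 0.990 and 0.981 over 151 sites, the heart factor TBX20 at 0.962 and 0.921 over 146 sites, and IRX4, another heart factor, at 0.866 and 0.9497 over 127 sites. SKNO-1 was lower in 64 of the 113 genes, beside 63.5% of all methylated tiles, so neither library was regularly the lower one.

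All 4 HOX clusters, which set position along the body axis, held methylated tiles. Genes with a methylated tile numbered 7 of 10 measured in HOXA, 4 of 6 in HOXB, 5 of 7 in HOXC and 8 of 9 in HOXD, against 14.2% of all genes, and none of the measured start tiles was unmethylated in both libraries, against 72.3% of all genes. HOXA9, a homeobox factor of blood stem cells that is high in many AMLs, was at 0.972 and 0.956 over 119 sites in tiles beside its start, whose own tile was not measured. HOXD12 was at 0.969 and 0.968, and HOXA10 at 0.9495 and 0.972. Of the FOX family 15 of 30 measured genes had a methylated tile. FOXD2, FOXJ2, FOXJ3, FOXK2, FOXM1, FOXN2 and FOXO1 had unmethylated starts, and FOXM1 drives genes of mitosis in dividing cells. Of the SOX family 10 of 13 had a methylated tile, of the NKX family 9 of 12 and of the TBX family 6 of 10, beside the 14.2% of all genes. These families were singled out after their values were seen.

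Genes of neurons and of cell signaling were the next groups. Of 124 ion channels and neurotransmitter receptors, 58 (46.8%) had a methylated tile, against 14.2% of all genes. The potassium channels KCNA7 and KCNB2 were at 0.907 and 0.914 over 126 sites and at 0.891 and 0.909 over 112 sites. GRIK3, a glutamate receptor subunit, was at 0.975 and 0.923 over 103 sites, and KCNK9, a leak potassium channel that is also imprinted, at 0.983 and 0.947 over 98 sites. The adrenergic receptors ADRA2B, ADRA2C and ADRB1 were at 0.995, 0.996 and 0.989 in SKNO-1 and at 0.993, 0.967 and 0.997 in SKNO1-siAE. Of 67 other G protein-coupled receptors, 33 (49.3%) had a methylated tile, against the same 14.2%. GPR26 was at 0.951 and 0.966, GPR45 at 0.9501 and 0.946, GPR158 at 0.936 and 0.937, and NTSR2, a neurotensin receptor, at 0.9504 and 0.980 in a tile downstream of a start that was at 0.618 and 0.911.

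Adhesion genes were represented in both of their lists. In the protocadherin clusters, which give neurons their surface identity, 11 of 12 measured genes (91.7%) had a methylated tile, against 14.2% of all genes. Of the 11, 10 were lower in SKNO-1, as were 63.5% of all methylated tiles. PCDHAC1 was at 0.905 and 0.917, PCDHA2 at 0.903 and 0.968, PCDHA8 at 0.895 and 0.965 and PCDHA12 at 0.893 and 0.962. The alpha exons resemble each other, although the only protocadherin tiles with a copy of at least 95% identity were those of PCDHGB5 and PCDHGB6. Of 71 other adhesion genes, 29 (40.8%) had a methylated tile, against 14.2% of all genes. CLDN3, a tight junction claudin of epithelium, was at 0.948 and 0.924, CDH6, a cadherin, at 0.845 and 0.898 (start tile pooled over reads in SKNO-1, 0.741, interval 0.705 to 0.775), and the tiles shared by the divergent basement membrane collagen genes COL4A1 and COL4A2 were at 0.959 and 0.980 over 90 sites.

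Among 40 genes often reported as methylated in myeloid leukemia, 17 (42.5%) had a methylated tile and 13 of 32 start tiles (40.6%) were methylated, against 14.2% and 11% of all genes. GATA5, a factor of gut and heart, was at 0.910 and 0.877, DKK3, a secreted WNT regulator, at 0.916 and 0.8995, SOX17, an endoderm factor, at 0.907 and 0.968, and MYOD1, the muscle regulator, at 0.922 and 0.955. The WNT antagonist SFRP1 was at 0.959 and 0.967 and CDH1, the adhesion protein E-cadherin, at 0.908 and 0.996. The start tiles of 9 of the 32 genes (28.1%) were unmethylated in both libraries, against 72.3% of all genes. The list was drawn up from knowledge of leukemia, so a share above that of all genes does not stand as independent evidence.

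A few genes of blood cells were methylated in both lines. Of 26 myeloid and stem cell genes with a measured tile, 8 (30.8%) had a methylated tile, against 14.2% of all genes. Of their 18 measured start tiles 11 (61.1%) were unmethylated, against 72.3% of all genes. CD34, the surface antigen of blood stem cells, was at 0.986 (site SD 0.0481) and 0.974 (0.0735) over 39 sites, from 1200 and 574 reads. IRF8, a factor of monocytes and dendritic cells, was at 0.956 and 0.980 over 53 sites. PROM1, which encodes CD133, was at 0.844 and 0.935 over 63 sites, and CD14, a monocyte receptor for lipopolysaccharide, at 0.903 and 0.987 over 19 sites. For IRF4, a factor of lymphocytes and dendritic cells, the mean over sites was 0.803 in SKNO-1, but the interval on its pooled reads, 0.591 to 0.675, was below the threshold, so its sites with more reads were the less methylated ones. KIT, the stem cell factor receptor, had 14 sites at 0.829 and 1 in a tile beside a start that was at 0.00223 in SKNO-1 and 0.506 in SKNO1-siAE. The starts of CEBPB, CEBPD, GFI1, TAL1 and RUNX3, factors of blood cells, were at most 0.00523 in SKNO-1 and 0.00973 in SKNO1-siAE.

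Several imprinted promoters were close to full methylation. In normal somatic tissue, MEST, DIRAS3, NNAT, FAM50B and PEG3 carry methylation on the maternal allele only, which would leave a level near the middle of the scale. MEST was at 0.981 and 0.956 over 113 sites in 2 tiles that flank a start tile that was not measured. DIRAS3, a growth-inhibiting GTPase, was at 0.940 and 0.925, NNAT at 0.970 and 0.956, FAM50B at 0.978 and 0.968, and the tile shared by PEG3 and ZIM2 at 0.905 and 0.937 over 21 sites. Loss of an allele and methylation of both cannot be told apart here. In all, 12 of 34 measured imprinted genes (35.3%) had a methylated tile, against 14.2% of all genes. DLK1, a Notch ligand of progenitors, was at 0.926 and 0.908 over 101 sites, and ANO1, a chloride channel, at 0.881 and 0.916. The start tiles of 11 of 25 imprinted genes (44%) were unmethylated, against 72.3% of all genes.

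Of 39 genes of drug and oxidant metabolism, 11 (28.2%) had a methylated tile, against 14.2% of all genes. CYP1B1 was at 0.930 and 0.961 over 177 sites. ALDH1A2 makes retinoic acid and was at 0.898 and 0.976, while CYP26B1 and CYP26C1, which break it down, were at 1 and 0.972 in SKNO-1 and at 0.962 and 0.977 in SKNO1-siAE. CYP7B1, a hydroxylase of oxysterols, was at 0.915 and 0.982. AKR7A3, an aldehyde reductase, was at 0.975 and 0.971 over 111 sites, but its tile has a copy elsewhere in hg19.

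Zinc finger and ribosomal protein genes had a lower share of methylated promoters than all genes. Of 375 zinc finger genes, most of which encode repressors of transposable elements, 28 (7.47%) had a methylated tile against 14.2% of all genes, while 225 of 314 start tiles (71.7%) were unmethylated, near the 72.3% of all genes. ZNF595 was at 0.885 and 0.937 over 143 sites, with 115 and 120 reads per site in its start tile against a median of 13.9 and 14.2 over methylated tiles. Whether this depth comes from related sequence was not tested. ZNF454 was at 0.881 and 0.925, ZNF518B at 0.928 and 0.965 and ZSCAN1 at 0.954 and 0.960. Of 66 ribosomal protein genes only RPL39L (1.52%) had a methylated tile, at 0.901 and 0.876 over 12 sites, and it is known as a testis-enriched form. Of 29 histone genes, 3 (10.3%) had a methylated tile, a share near that of all genes. They were H2AC25 and H2BC26, which share tiles at 0.929 and 0.926, and H2BC6, at 0.967 and 0.951. All 9 measured histone start tiles were unmethylated, against 72.3% of all genes. Of 12 genes of antigen presentation and interferon response, 1 (8.33%) had a methylated tile, against 14.2% of all genes. It was MX1, an antiviral GTPase, at 0.959 and 0.957 beside a start tile at 0.742 and 0.978.

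Most methylated promoters were in none of these lists, which held 365 of the 1517 genes. By number of sites, the genes with a methylated start tile were led by ULBP1, a ligand for the NKG2D receptor of natural killer cells, at 0.929 and 0.957 over 180 sites. ARHGAP20, a GTPase-activating protein, was at 0.926 and 0.965 and BHLHE23, a neuronal factor, at 0.984 and 0.966, over 160 sites each. RBM24, a splicing factor of muscle, was at 0.909 and 0.932 over 151 sites, SP5, a WNT target, at 0.930 and 0.912 over 145, and TRIL, which binds toll-like receptors, at 0.904 and 0.938 over 144. The number of sites reflects how much of a promoter was captured and not how strongly it was methylated.

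Sequence and annotation were next compared between methylated and unmethylated tiles, as counts with no test. Both classes had passed the same limits on CpG ratio and GC content, and within these they had a median observed-to-expected ratio of 0.824 against 0.841, a GC content of 68.1% against 66.4% and 47 against 45 CpGs per tile. The share of tiles that were methylated was 15.0% for ratios from 0.65 to 0.75 and 12.8% for ratios of 0.95 or more. By chromosome it ran from 9.45% on chromosome 12 to 20.8% on chromosome 18. A clear difference lay in the neighborhood: a start of another coding gene on the other strand within 1000 bp was present for 19 of 917 genes with a methylated start tile (2.07%) and for 1112 of 6024 with an unmethylated one (18.5%). COL4A1 and COL4A2 are examples of such a pair that was methylated. Lying inside another coding gene was about as common for both, at 8.29% and 9.50%.

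Letters of the ETS, NRF1, BANP and SP/KLF motifs, which activators bind at island promoters, were scarcer in methylated tiles. Position was not matched: the methylated share was 10.8% at the start and 22.4% at 750 bp downstream. Whether position bears on the motif counts was not tested. Each motif was searched on both strands as fixed letters, and a match is not a bound site. CCGGAAGT, the core of ETS factors, was in 1.27% of methylated tiles, 8.11% of unmethylated tiles and 5.98% of all measured tiles. The consensus palindrome of NRF1, which binds it only when it is not methylated, was in 0.407%, 2.44% and 1.82%. TCTCGCGA, the motif of BANP, was in 0.763%, 2.49% and 1.93%, and GGGCGGGG, of SP and KLF factors, in 35.3%, 43.8% and 42.2%. GGCGGGAAA, of E2F factors including the germline gene repressor E2F6, was in 1.48%, 1.94% and 1.76%, and in 1 of the 56 methylated tiles of germline genes (1.79%). TGTGGT, the letters bound by RUNX1 and hence by the fusion, was in 11.2% of methylated tiles, 13.3% of unmethylated tiles and 12.8% of all. CACGTG, the E-box bound by MYC, MAX and MGA, was in 12.7%, 13.0% and 12.5%, and in 17 of the 56 methylated tiles of germline genes (30.4%).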

How the data were processed

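DNA of the SKNO-1 and SKNO1-siAE cell lines was bisulfite-converted, captured with SeqCap Epi probes and sequenced as paired 125-bp reads by the authors. Per the labels, cutadapt 1.4.2 and BSMAP 2.73 with hg19 were used. The authors deposited counts, the methylated and the unmethylated reads of each CpG cytosine, without normalization and with at least 5 reads per site. Removal of PCR duplicates is not given in the sources used here.

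All 6115162 autosomal sites lay on a reference CpG, and 3125690 had at least 5 reads in both libraries. Starts came from GENCODE 44 on GRCh37. Tile levels, counts, Wilson intervals and motif matches were computed with python 3.11.15, pandas 2.3.3, scipy 1.17.1 and pysam 0.24.0. Copies of tiles (at least 95% identity over 400 bp) were searched with minimap2 2.31 in place of the planned BLAST. There is 1 library per line, so no test was made. Tile calling was tested on simulated counts.

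The tiles, gene lists and named-gene rule were chosen with earlier results of these data known. By that rule, the text names in each list the 4 genes with the most shared sites in methylated tiles, over all genes the 12 with a methylated start tile and the most sites, the 4 tiles with the largest difference each way, and the 3 nearest the threshold on each side, of which 1 is not reported here. The remaining genes were picked with their values in view. The alternatives tried were other limits on reads, sites, level, CpG ratio and distance, pooled reads, merged strands, shifted tiles and all coding starts.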

Additional observations from a re-analysis of the deposited data

How the results depend on the processing

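Of 100 values recomputed under alternatives, 71 stayed within the limits set for them and 29 moved. The limits on counts were wide: the 2697 tiles found with every coding start still counted as the same as 1966. For medians over tiles, the limits were the counting interval of a single tile with the median number of reads. The median difference between the libraries was negative under each alternative, and no other value had a direction to change. With at least 10 reads per site, 1288 tiles (14.9%) were methylated, and with a level of at least 0.9, 1146 tiles (7.88%), 959 genes, 529 genes at the start tile and a median of 0.957 in SKNO-1. The percent methylated was 16.3 at a level of at least 0.7, 12.3 within 250 bp of the start and 16.1 for every protein-coding transcript start. With an observed-to-expected ratio of at least 0.75, 29 of 45 germline genes had a methylated tile instead of 47 of 61. The level at sites read in a single library, 0.892 in SKNO-1 and 0.928 in SKNO1-siAE, was 0.8999 and 0.930 with 10 reads per site, 0.891 and 0.926 for pooled reads, 0.875 and 0.924 for merged strands, 0.873 and 0.917 at a level of 0.7, 0.922 and 0.943 at 0.9, 0.901 and 0.929 with 20 sites per tile, 0.897 and 0.930 at a ratio of 0.75, 0.896 and 0.924 for tiles shifted by 250 bp and 0.897 and 0.930 for every coding start. SKNO-1 was the lower library in each, over other cytosines than those of SKNO1-siAE. Why these values moved was not tested, beyond the fewer tiles that stricter limits leave. With 1 library per line no replicate could be left out. No paired analysis was possible because the results come from no test. A tile with few sites or reads is known less well, as at ESR1, PAPPA, CLDN5 and EPHB1.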

Other observations

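In 23 genes a methylated tile lay beside an unmethylated start tile, upstream of it in 12 and downstream in 11. PTDSS2, which makes phosphatidylserine, had a start tile at 0 and 0.00493 and a flanking tile at 1 in both libraries over 11 sites. AQP11, an aquaporin, had a start tile at 0 in both libraries and a flanking tile at 0.873 and 0.932. RAE1, an mRNA export factor, was at 0.000494 and 0.00178 at the start and at 0.973 and 0.952 beside it. KCTD8, which binds GABA-B receptors, was at 0 and 0.0711 at the start and at 0.968 and 0.963 beside it.

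Of the 917 genes with a methylated start tile, 81 had another annotated start in a measured CpG-rich tile, and in 11 of these (13.6%) such a tile was unmethylated in both libraries. Of the 470 genes with an unmethylated start tile and another such start, 288 had an unmethylated one. MEF2B, a factor of B cells and muscle, was at 0.983 and 0.980 at its MANE Select start and at 0 in both libraries at a coding start at -21868 bp from it, over 38 sites. ARRDC2, an arrestin-domain protein, was at 0.996 and 0.960 at the MANE Select start and at 0.00208 and 0.00868 at a coding start at -7038 bp from it, over 48 sites. PRDM2, a histone methyltransferase, was at 0.996 and 0.994 at the MANE Select start and at 0 in both libraries at a coding start 49215 bp downstream, over 14 sites. A methylated MANE Select start thus need not hold for all starts of a gene.

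Near-identical copies elsewhere in hg19 were found for 36 of the 1966 methylated tiles (1.83%) and 99 of the 9708 unmethylated tiles (1.02%). Methylated tiles with a copy included those of GRM5, TUBA3D, FOXD4 and HBA1, a globin gene. Of 1614 measured tiles that adjoin a methylated tile and are not methylated CpG-rich promoter tiles themselves, 788 (48.8%) were at 0.8 or more in both libraries and 29 (1.80%) at 0.2 or less. Among these neighbors, 281 were lower in SKNO-1 by more than 0.2 and 54 higher by more than 0.2.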
